A study of Mus musculus with 42 samples.

Results

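The aminoacyl-tRNA synthetases are the enzymes that attach each amino acid to its transfer RNA. Of the 55487 gene identifiers in the deposited tables, 36 were taken by a fixed list of synthetase symbols, 20 coding for the cytosolic enzymes and 16 for the mitochondrial ones, and all 36 were found and tested in every comparison. Gars and Kars, listed with the cytosolic genes, code for both forms. Leucine, isoleucine and valine, the branched-chain amino acids (BCAA), are charged by Lars, Iars and Vars in the cytosol and by Lars2, Iars2 and Vars2 in mitochondria, and these 6 genes are followed through every comparison.

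By RefSeq annotation (GRCm38.p6, the build named in the submitters' notes without the patch), Lars lies on chromosome 18, Iars at chr13:49682130-49734267 and Vars at chr17:35000907-35016329. Iars2 (chr1:185286642-185329419) and Eprs (chr1:185361417-185428360), the other genes most often named below, lie close together on chromosome 1.

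Each synthetase recognises 1 amino acid and its tRNAs, except Eprs, which charges both glutamate and proline. Several cytosolic synthetases sit together in the multisynthetase complex with 3 scaffold proteins, Aimp1, Aimp2 and Eef1e1. The mitochondrial enzymes are made in the cytosol, imported, and serve only the few proteins translated inside mitochondria. When an amino acid runs short, uncharged tRNA activates the kinase GCN2 (gene Eif2ak4), and the transcription factor ATF4 then raises many cytosolic synthetase genes together with asparagine synthetase (Asns).

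The cells were MLL-AF9 acute myeloid leukaemia (AML) cells labelled wild type, carrying green fluorescent protein (GFP), which the labels place under a ubiquitin element, and luciferase under the β-actin promoter. The line came from 1 terminally ill mouse and was expanded in culture. It was injected by vein into male mice aged 8 to 10 weeks that were not preconditioned. Mice ate a standard amino acid (AA) diet or one free of BCAA. Once the leukaemia burden was critical they received saline vehicle or the course called 5+3, cytarabine (100 mg/kg) once a day over 5 days, joined for the first 3 days by doxorubicin (3 mg/kg). Live GFP+ cells were sorted from bone marrow at the time of maximum response. The groups were AA vehicle (5 mice), AA 5+3 (4), BCAA-free vehicle (5) and BCAA-free 5+3 (7). Every mouse gave an mRNA library and a library of ribosome footprints, the mRNA pieces shielded by translating ribosomes. Only mice of the AA vehicle group have names ending in B, with no reason given in the labels, so a batch so marked cannot be told apart from the group.

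Depth was 30996200 to 70437713 gene counts in mRNA and 2697092 to 8863472 in footprints. Levels are given as CPM, counts per 1000000 of a library size adjusted by TMM scaling, so they differ somewhat from counts over the plain totals. All 8 leukaemia markers listed, such as Ptprc, Mpo and Hoxa9, were detected, with summed footprints of 4093 to 7830 CPM over the 21 mice. Genes listed as markers of other cell types were also detected and moved with the groups. Whether leukaemia cells or other cells carried them was not tested. The 9 neutrophil markers summed to 435 to 685 footprint CPM in BCAA-free vehicle mice and to 56.6 to 498 in BCAA-free 5+3 mice. The 7 red cell markers found went from 112 to 214 CPM down to 7.36 to 25.8 CPM in the same groups, and were 32.4 to 146 and 93.8 to 151 CPM on the AA diet. The 9 monocyte and macrophage markers were at 204 to 530.1 CPM with vehicle and 89.6 to 118 CPM with 5+3 on the AA diet, and at 178 to 257 and 44.0 to 141 CPM on the BCAA-free diet. B cell and T or NK cell markers stayed at 22.3 and 10.1 footprint CPM or less. In mRNA their sums reached 100.1 CPM (B cell, BCAA-free 5+3 mice) and 137.5 CPM (T or NK cell, AA 5+3 mice). None of these markers was at 0 in all libraries, and their part in the results below was not tested. In cells sorted in bulk, fewer cells of a type and less RNA per cell cannot be told apart.

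The cytosolic genes had far deeper footprints than the mitochondrial ones. Mean footprint counts per library were 138 (Cars) to 1203 (Eprs) in the cytosolic class. In the mitochondrial class they were 14.5 (Wars2) to 240.7 (Iars2), apart from Lars2 at 4010.4. A count that misses the threshold in the mitochondrial class therefore says less: for 5+3 on the BCAA-free diet the median standard error (SE) of a log2 footprint change was 0.11 over the cytosolic members and 0.17 over the mitochondrial members.

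Lars2 was set apart. Its row held 93.5% of all mRNA counts of the 16 mitochondrial members and 82.6% of their footprints. Over the 21 mRNA libraries it ranged from 213 to 41596 CPM, while Iars2 stayed between 31.5 and 80.3 CPM. Its log2 mRNA level ran with those of the rows Gm15564 (r = 0.996) and Gm23935 (r = 0.993). The correlation with Iars2 was -0.24 over the same libraries. In footprints the correlations with these 2 rows were 0.763 and 0.754. The points share each library's depth and scaling, so these values are a description, and sums over the mitochondrial class are given without Lars2 unless stated.

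Without chemotherapy, the ratio of footprints to mRNA differed between the classes. In AA vehicle mice it was set against that of the median of 12097 genes. No correction was made for gene or transcript length, and its part in the ratio was not tested. The cytosolic members had a median log2 ratio of 0.70, and 14 of 20 lay above the median gene. The mitochondrial members had a median of -0.69, and 1 of 16, Iars2, lay above it. Iars, the isoleucine enzyme of the cytosol, had the highest ratio at 2.15 ± 0.63 (SD, n = 5). Lars followed at 1.57 ± 0.50 (SD, n = 5), which overlaps it. Cars2, the mitochondrial cysteine enzyme, had the lowest at -1.95 ± 0.54 (SD, n = 5). No test was made of this difference between the classes.

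Several of these genes carry a shared sequence near their start site, shown here because ATF4 is a known regulator of cytosolic synthetase genes. The motif TGATGNAA, of the kind bound by dimers of ATF4 with C/EBP proteins, was searched on both strands in the 250 bases before and 50 after each RefSeq start (GRCm38.p6). It was found in 4 of the 12 cytosolic promoters searched (Gars, Iars, Tars and Yars) and in 0 of 14 mitochondrial ones. Of all 32851 promoters 3.97% held it. The windows below run 5′ to 3′ along the gene, with the motif or its reverse complement in capitals. The motifs of Gars (window chr6:55037960-55037989), Tars (chr15:11399655-11399684) and Asns (chr6:7693214-7693243) lie before the start site. Those of Iars (chr13:49682126-49682155) and Yars (chr4:129189895-129189924) lie just after it. For Yars the start used in the search lies inside the gene, whose outer boundary RefSeq places at chr4:129189734.
Gars: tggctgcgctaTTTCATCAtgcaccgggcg
Iars: cactgtcagtaTTGCATCAcctccagacgc
Tars: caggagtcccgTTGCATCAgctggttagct
Yars: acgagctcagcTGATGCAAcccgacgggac
Asns: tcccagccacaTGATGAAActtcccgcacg
The motif and genes were shown with the changes below already known, so a match among genes that changed is no test of a link. A match describes letters in a window and is no evidence of binding, and Lars, Cars, Nars, Rars, Vars, Wars and Hars had no promoter entry.

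The first comparison set 5+3 against vehicle on each diet. On the BCAA-free diet, footprints of 11 of 20 cytosolic enzymes rose and 0 fell. The other 9 did not pass, all 20 changes were above 0, and the median log2 change was 0.35. Over all 15723 genes tested 8.76% rose and 11.9% fell (20.6% in either direction), with a median of -0.02. Of the 16 mitochondrial genes, Iars2 rose and Rars2 fell, and the median was 0.01. Tests were edgeR's quasi-likelihood test with Benjamini-Hochberg adjustment over all genes.

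**Figure D1:**
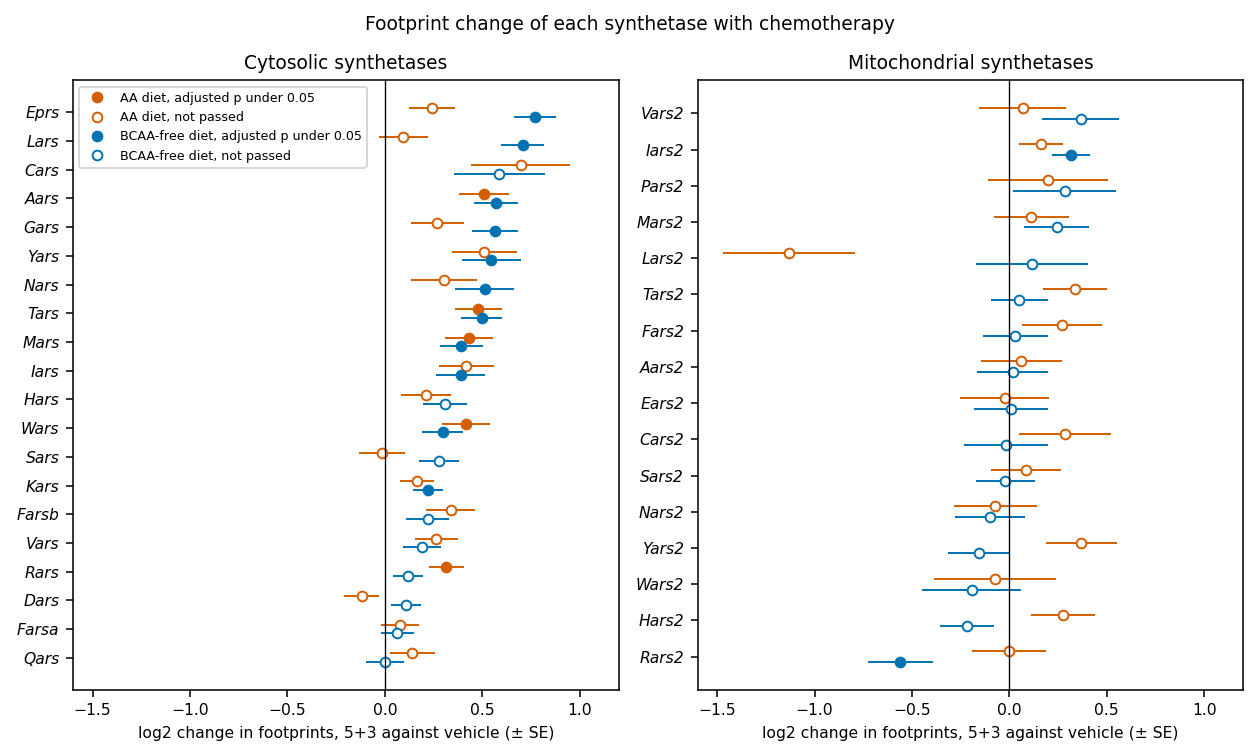
Footprint changes of the 20 cytosolic (left) and 16 mitochondrial (right) synthetases with 5+3 against vehicle, as log2 change ± SE, in mice on the AA diet (orange) and the BCAA-free diet (blue). Filled points passed an adjusted p of 0.05. On the BCAA-free diet all 20 cytosolic changes lie above 0, from 0.00 (Qars) to 0.77 (Eprs), while the mitochondrial ones lie on both sides.

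Eprs, the fused glutamate and proline enzyme, rose most. Its footprints were 178, 159, 165, 166 and 147 CPM in the 5 vehicle mice on the BCAA-free diet, and with 5+3 ran from 237 through a median of 253 to 364 CPM. The groups did not overlap, and the log2 change was 0.77 ± 0.11 (SE, adjusted p = 5.52e-05). Lars, the leucine enzyme, was at 119, 122, 128, 119 and 110.4 CPM with vehicle and at 162 to 253 CPM (median 178) with 5+3. Again every treated mouse lay above every vehicle mouse, with a log2 change of 0.71 ± 0.11 (SE, adjusted p = 0.000143), a rise of 63.2%.

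Iars, which charges isoleucine, rose less. It was at 71.2, 86.5, 87.1, 78.1 and 94.2 CPM with vehicle and at 85.4 to 163 CPM (median 97.1) with 5+3, so the groups overlapped. Its log2 change was 0.39 ± 0.13 (SE, adjusted p = 0.0298). Vars, the valine enzyme, did not pass: 173, 181, 167, 152 and 158 CPM with vehicle, 179 to 203 CPM (median 189) with 5+3, and a log2 change of 0.19 ± 0.10 (SE, adjusted p = 0.164). Of the 3 cytosolic BCAA enzymes 2 thus rose, and of the other 17 cytosolic members 9 did.

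The remaining risers were spread over the amino acids. Aars (alanine) rose by 0.57 ± 0.12 on the log2 scale (adjusted p = 0.00139), Gars (glycine, in both compartments) by 0.56 ± 0.12 (adjusted p = 0.00209) and Yars (tyrosine) by 0.55 ± 0.15 (adjusted p = 0.0138). Nars (asparagine) rose by 0.51 ± 0.15 (adjusted p = 0.02). Tars (threonine, 0.50), Mars (methionine, 0.39), Wars (tryptophan, an interferon-induced gene, 0.30) and Kars (lysine, in both compartments, 0.22) passed with smaller changes. Cars (cysteine) changed by 0.59 ± 0.23 without passing (adjusted p = 0.0815), as its 7 treated mice ran from 12.0 to 45.2 CPM. Treated replicates 2 and 5 had the highest footprint CPM of the 7 mice for each of the 11 risers, for instance 253 and 244 for Lars against at most 188 in the other 5 mice. With any 1 of the 12 mice left out, 8 to 14 cytosolic members rose and 0 fell. Lars, Eprs, Aars, Gars, Tars, Mars, Nars and Yars rose in each of these fits. Iars did not pass in 4 of the 12, those without vehicle replicates 1 or 4 or treated replicates 2 or 5 (adjusted p up to 0.0725). Wars and Kars were the least steady, each missing the threshold in 7 of the 12 (adjusted p up to 0.1002 and 0.0897). Without 4 mice whose mRNA libraries stand apart (BCAA-free vehicle replicates 1, 2 and 5 and BCAA-free 5+3 replicate 7), which leaves 2 vehicle mice, only 3 rose: Eprs (0.80), Lars (0.71) and Aars (0.67).

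By location in the cell, 5 of the 8 enzymes of the multisynthetase complex rose (Eprs, Lars, Iars, Mars and Kars), and 6 of the 12 free cytosolic ones. Within the complex, Qars (glutamine) was level at 0.00 ± 0.10, Dars (aspartate) changed by 0.11 ± 0.08 and Rars (arginine) by 0.12 ± 0.08, and none of them passed. None of the scaffold proteins passed, with changes of 0.17 ± 0.08 for Aimp1 (adjusted p = 0.158), 0.07 ± 0.10 for Aimp2 (adjusted p = 0.679) and 0.22 ± 0.14 for Eef1e1 (adjusted p = 0.277).

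In the mitochondrial class Iars2, the isoleucine enzyme, rose. Its footprints were 44.0, 44.7, 48.2, 40.2 and 40.6 CPM with vehicle and 48.4 to 63.1 CPM (median 56.1) with 5+3. The groups did not overlap, and the log2 change was 0.32 ± 0.10 (SE, adjusted p = 0.0233). Rars2, the arginine enzyme, fell from 15.0, 14.2, 17.1, 17.3 and 19.8 CPM to 6.88 to 16.3 CPM (median 9.72), with overlap, by 0.56 on the log2 scale (SE 0.17, adjusted p = 0.0189). Vars2 changed by 0.37 ± 0.20 and Lars2 by 0.12 ± 0.29 without passing. Iars2 did not pass without vehicle replicates 4 or 5 (adjusted p up to 0.0598), and Rars2 without vehicle replicate 5 (0.0672). Cytosolic Iars and mitochondrial Iars2 both rose, and over the 21 footprint libraries, which share scaling, their log2 levels had a correlation of -0.0146.

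On the AA diet the response was smaller in number but had the same direction in the cytosolic class. Footprints of 5 of 20 rose (Aars, Tars, Mars, Wars and Rars) and 0 fell, 18 of 20 changes were above 0, and the median was 0.29. Over all genes 3.49% rose and 3.12% fell (6.61% in all), with a median of -0.02. Of the mitochondrial members 0 passed in edgeR's test (1 of 16, Lars2, at an unadjusted p under 0.05, and 1 in DESeq2), with a median of 0.10. That unadjusted cut was met by 3465 of all 15723 genes. Aars rose from 134, 130.3, 133, 112 and 116 CPM to 184, 178, 185 and 163 CPM, with no overlap and a log2 change of 0.51 ± 0.13 (adjusted p = 0.0175). Tars rose by 0.48 ± 0.12 (adjusted p = 0.0159) and Mars by 0.43 ± 0.12 (adjusted p = 0.0365). Wars rose by 0.42 ± 0.12 (adjusted p = 0.0405) and Rars by 0.32 ± 0.09 (adjusted p = 0.0323). With 1 mouse left out, 1 to 6 cytosolic members rose, fewest without treated replicates 1 or 3. Tars rose in all 9 such fits and Aars in 7. Mars and Rars passed in only 4 each and Wars in 2, with adjusted p values up to 0.115, 0.084 and 0.152.

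None of the BCAA enzymes passed on this diet. Lars was at 153, 149.8, 167, 113 and 149 CPM with vehicle and at 167, 149, 163 and 145 CPM with 5+3. The groups overlapped, and the change of 0.10 ± 0.12 had an adjusted p of 0.717. Iars changed by 0.42 ± 0.14 (adjusted p = 0.073), with all 4 treated mice above the 5 vehicle mice, and Vars by 0.26 ± 0.11 (adjusted p = 0.154). Iars2 changed by 0.16 ± 0.11 and Vars2 by 0.07 ± 0.22. Lars2 had the largest shift of the class, -1.13 ± 0.34, which missed the threshold (adjusted p = 0.0523). The 5 cytosolic genes that rose on the AA diet and the 11 on the BCAA-free diet shared 4 (Aars, Mars, Tars and Wars). The same overlap over all genes was not computed, so this count has nothing to be set against. The groups also differ in size, with 4 treated mice on the AA diet and 7 on the BCAA-free diet. These comparisons rest on different mice.

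**Figure D2:**
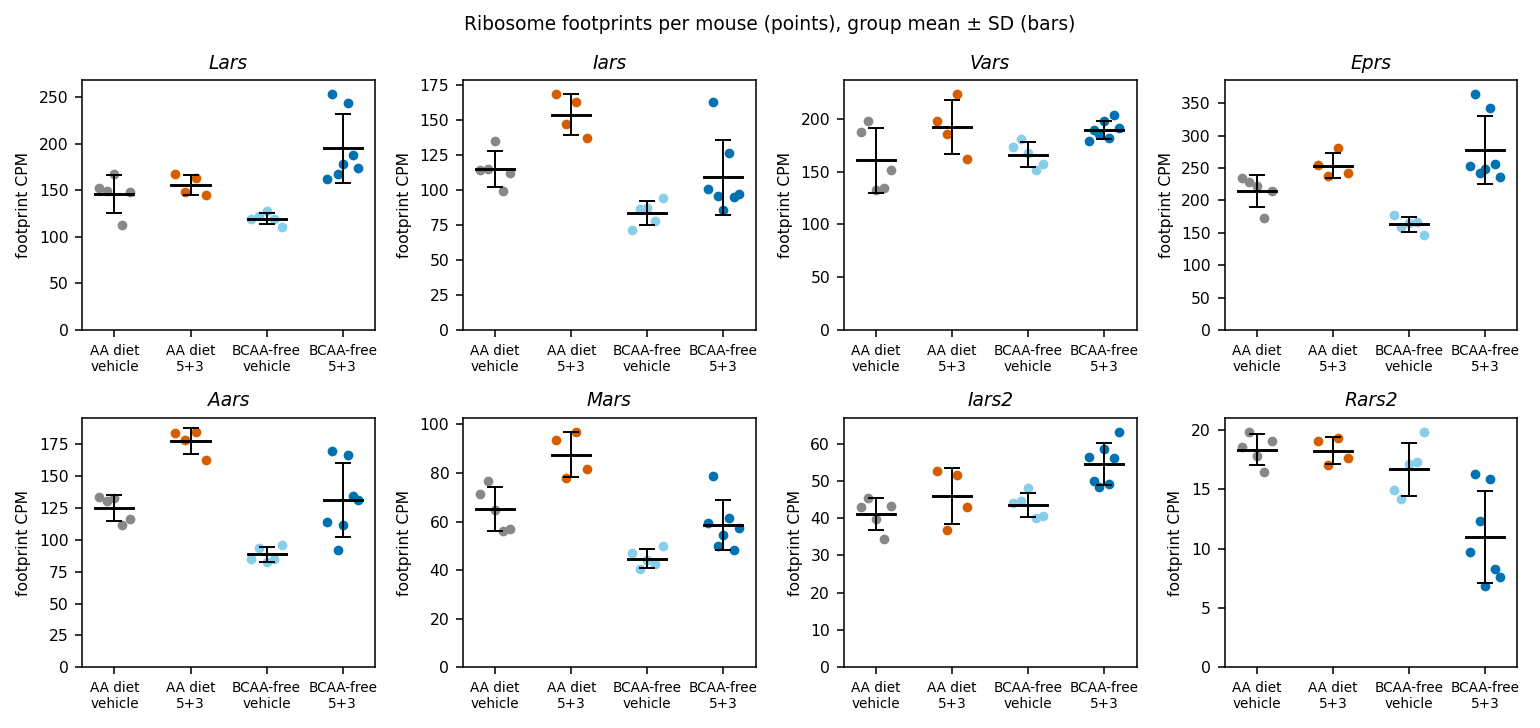
Footprint CPM of 8 synthetases in each of the 21 mice (points) by group, with the group mean and SD (bars). Lars and Eprs are higher in every BCAA-free mouse given 5+3 than in any BCAA-free vehicle mouse, Aars and Mars are lowest in BCAA-free vehicle mice, and Rars2 is low in most BCAA-free mice with 5+3.

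Whether chemotherapy acted differently on the 2 diets was tested as an interaction. It passed for Lars, with a difference between the log2 changes of 0.61 ± 0.17 (SE, adjusted p = 0.0277), and for Eprs, with 0.53 ± 0.16 (adjusted p = 0.0441). These were 2 of 20 cytosolic members and 0 of 16 mitochondrial ones (4 at an unadjusted p under 0.05 and 1 in DESeq2), beside 7.09% of all genes (3.29% higher and 3.8% lower). The 2 calls among all 36 members are thus near the share over all genes. An unadjusted p under 0.05 was reached by 3716 of all 15723 genes. The Lars call was lost in 2 and the Eprs call in 10 of 21 fits that left out 1 mouse, with differences of 0.54 to 0.69 and 0.46 to 0.60. Without the 4 mice neither passed (0.61 with an adjusted p of 0.149, and 0.56 with 0.154). For Iars the difference was -0.03 ± 0.19, with a 95% interval from -0.40 to 0.34. For Vars it was -0.07 ± 0.15, from -0.36 to 0.21. For the isoleucine and valine enzymes no difference between diets was detected within those bounds. Lars2 (1.25 ± 0.44, adjusted p = 0.093), Iars2 (0.15 ± 0.15) and Vars2 (0.30 ± 0.30) did not pass.

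The share of Lars within its class described the same shift from the same footprints, so it is no further evidence. Shares of other single members were not computed. Lars held 7.07% ± 0.598 (SD, n = 5) of cytosolic synthetase footprints in AA vehicle mice, 6.38% ± 0.175 (n = 4) in AA 5+3 mice, 6.78% ± 0.383 (n = 5) in BCAA-free vehicle mice and 8.50% ± 0.438 (n = 7) in BCAA-free 5+3 mice. The last group ran from 7.70% to 9.01% and lay above every other mouse, the highest of which had 7.65%. The 3 BCAA enzymes together held 20.4%, 20.5%, 20.9% and 21.7% of the class in the same order, and these groups overlapped. In mRNA the Lars share was 3.66% ± 1.09, 2.77% ± 0.404, 3.08% ± 0.373 and 3.11% ± 0.524, and no group lay apart from the others. Shares within a class rest on counts that also reflect gene length, which is the same in every group.

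The diets were then compared under each treatment. With vehicle, footprints of Aars and Mars were lower on the BCAA-free diet. These were 2 of 20 cytosolic members, against 1.4% of all genes lower and 0.642% higher (2.04% in all), and the other 18 did not pass. The median change of the 20 was -0.28, with 16 below 0, 4 above it and 10 at an unadjusted p under 0.05. The median of all genes was 0.00, and 2750 of all 15723 met that unadjusted cut. Mars, the methionine enzyme, went from 71.4, 76.8, 64.9, 56.0 and 56.8 CPM on the AA diet to 47.0, 40.4, 44.1, 42.4 and 49.9 CPM. The groups did not overlap, and the log2 change was -0.53 ± 0.12 (adjusted p = 0.0183). Aars went to 85.4, 93.8, 82.5, 85.3 and 96.0 CPM, again with no overlap, a log2 change of -0.49 ± 0.12 (adjusted p = 0.0338).

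Among the BCAA enzymes, Iars differed by -0.46 ± 0.14 (adjusted p = 0.0669), Lars by -0.29 ± 0.12 (adjusted p = 0.196) and Vars by 0.05 ± 0.10 (adjusted p = 0.843). The 5 BCAA-free mice were below the 5 AA mice for Iars but not for Lars. No mitochondrial member passed in edgeR's test (0 of 16, with 2 at an unadjusted p under 0.05 and 0 in DESeq2), and their median was 0.03. The unadjusted count over all genes was 2750 of 15723, as given above. Lars2 differed by -0.77 ± 0.31, Vars2 by -0.36 ± 0.22 and Iars2 by 0.09 ± 0.11. This comparison and that of 5+3 with vehicle on the BCAA-free diet share the 5 BCAA-free vehicle mice. Its count was 5 in DESeq2 and 7 in a fit of these 10 mice alone, all lower and cytosolic, but 0 without the 4 mice or without the 2 shallowest libraries (AA vehicle replicates 1 and 2). With 1 mouse left out it was 1 to 4. Mars was lower in all 10 such fits, but Aars passed in only 4 (adjusted p up to 0.069).

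With 5+3, 1 of 20 cytosolic enzymes was higher on the BCAA-free diet and 5 were lower. Of all genes 12.5% were higher and 15.8% lower (28.3% in all), so these 6 of 20 are close to the share over all genes. Lars was the higher one, by 0.32 ± 0.12 (adjusted p = 0.0395). The class median was -0.09, beside 0.00 for all genes. Cars was lower by 0.72 (SE 0.23), Mars by 0.57 (SE 0.11), Iars by 0.49 (SE 0.13), Yars by 0.48 (SE 0.15) and Aars by 0.43 (SE 0.12), with adjusted p values of 0.0245, 0.000679, 0.00631, 0.0207 and 0.00824. The Lars call was lost in 4 of 11 fits with 1 mouse left out (AA replicates 2 or 4, BCAA-free replicates 2 or 5), with adjusted p values up to 0.098. The Cars call was lost without AA replicates 1 or 3, and that of Yars without AA replicate 1 (adjusted p up to 0.0795 and 0.126). Without the 4 mice apart in mRNA neither Cars nor Yars passed, while Aars, Iars and Mars were lower in all 11 fits and in the 8 other alternatives run. Iars was at 168, 147, 163 and 137 CPM on the AA diet and at a median of 97.1 CPM on the BCAA-free diet, and only the highest of the 7 mice, at 163 CPM, fell inside the AA range. Lars was at a median of 178 CPM on the BCAA-free diet, and its groups overlapped. Vars differed by -0.02 ± 0.10, with a 95% interval from -0.22 to 0.18.

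**Figure D3:**
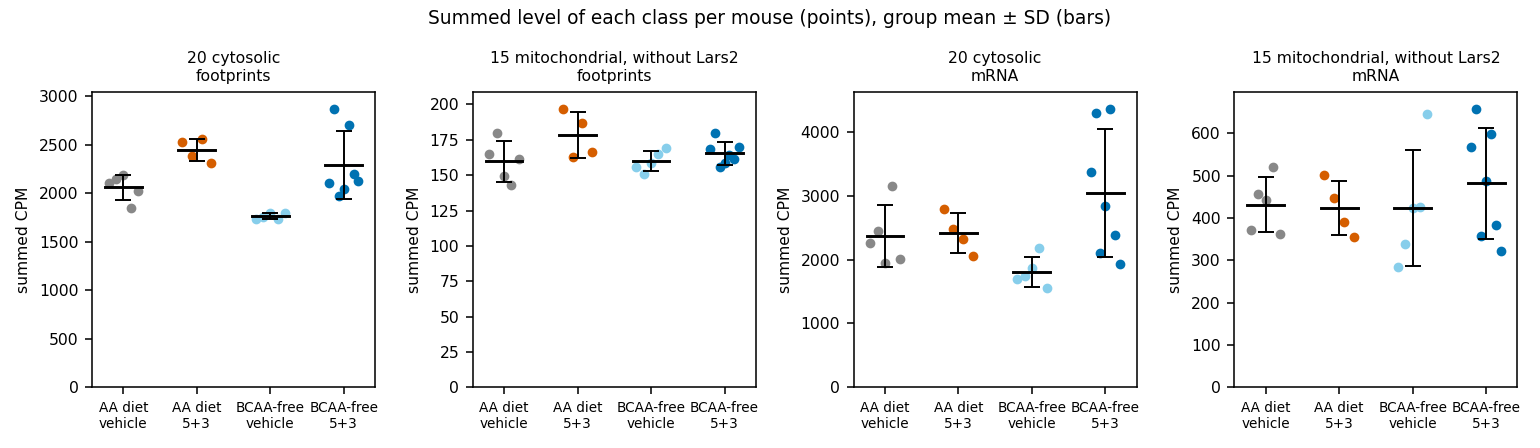
Summed CPM of the 20 cytosolic and of 15 mitochondrial synthetases (without Lars2) in each of the 21 mice, in footprints and in mRNA, with group mean and SD. Cytosolic footprints are lowest in the 5 BCAA-free vehicle mice, while the mitochondrial sums overlap across all 4 groups.

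In the mitochondrial class 3 of 16 were lower and 0 higher on the BCAA-free diet with 5+3, near the 15.8% of all genes lower in this comparison. Rars2 fell by 0.69 (SE 0.18, adjusted p = 0.00476), Cars2 by 0.60 (SE 0.22, adjusted p = 0.0396) and Tars2, the threonine enzyme, by 0.51 (SE 0.15, adjusted p = 0.0134). The Cars2 call was lost in 8 of 11 fits with 1 mouse left out, those without any 1 of the 4 AA mice or BCAA-free replicates 1, 4, 5 or 7 (adjusted p up to 0.0992). That of Tars2 was lost without AA replicate 1 (0.077), and Rars2 passed in all 11. Rars2 was at 19.1, 17.0, 19.3 and 17.6 CPM on the AA diet, above all 7 BCAA-free mice. Cars2 was at 9.87, 9.82, 10.6 and 9.41 CPM, against 4.74 to 8.38 CPM (median 6.10). Iars2 (0.24 ± 0.10), Lars2 (0.48 ± 0.31) and Vars2 (-0.06 ± 0.20) did not pass. Summed without Lars2, mitochondrial footprints were 159.8 ± 14.4 CPM (SD, n = 5), 178 ± 16.4 (n = 4), 159.8 ± 7.10 (n = 5) and 165 ± 8.10 CPM (n = 7) in the order AA vehicle, AA 5+3, BCAA-free vehicle and BCAA-free 5+3.

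Cytosolic footprints summed to 2062 ± 131, 2445 ± 116, 1766 ± 30.3 and 2289 ± 350.4 CPM in that order. The sums of the 5 BCAA-free vehicle mice, 1736 to 1801 CPM, lay below those of all 16 other mice, the lowest of which had 1852 CPM. The ratio of the cytosolic to the mitochondrial sum was 13.0 ± 1.02, 13.8 ± 0.755, 11.1 ± 0.456 and 13.8 ± 1.69. It was lowest in the BCAA-free vehicle mice, at 10.5 to 11.6, and the next mouse of any group had 11.9. With Lars2 counted, the ratio was 1.56 ± 0.479, 3.40 ± 0.702, 2.03 ± 0.399 and 2.66 ± 1.15, so its order over the groups rested on that row.

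mRNA was read from the same lysates. On the BCAA-free diet, 9 of 20 cytosolic members rose with 5+3 and 0 fell, beside 4.33% of all 21114 genes higher and 4.23% lower (8.56% in all). The median was 0.90, beside -0.01 over all genes, and 19 of 20 changes were above 0. Wars rose most, from 13.1, 25.4, 17.7, 32.9 and 6.85 CPM to 28.8 to 86.9 CPM (median 69.3), a log2 change of 1.65 ± 0.37 (adjusted p = 0.0135). Yars rose by 1.47 ± 0.36 (adjusted p = 0.0199), Nars by 1.25 ± 0.32 (adjusted p = 0.0248) and Mars by 1.09 ± 0.30 (adjusted p = 0.0321). Eprs rose by 1.08 ± 0.28 (adjusted p = 0.0254) and Farsb, the second subunit of the phenylalanine enzyme, by 1.07 ± 0.29 (adjusted p = 0.0291). Dars (1.05), Iars (1.04 ± 0.28, adjusted p = 0.0302) and Kars (0.91) also passed. The count of 11 synthetases, both classes together, was 18 in DESeq2, 3 in a fit of these 12 mice alone and 0 without the 4 mice apart in mRNA. With 1 mouse left out it was 2 to 15, and it was 2 without vehicle replicate 2 or without treated replicate 5.

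Lars mRNA lay at the threshold, at 0.73 ± 0.23 with an adjusted p of 0.0504, and its groups overlapped (41.8, 58.7, 60.0, 73.1 and 46.6 CPM against 46.0 to 122 CPM, median 95.6). Vars mRNA changed by 0.33 ± 0.21 (adjusted p = 0.33). In the mitochondrial class Yars2, the tyrosine enzyme, rose by 0.93 ± 0.25 (adjusted p = 0.0276) and Cars2 fell by 1.15 on the log2 scale (SE 0.23, adjusted p = 0.00972), and the median was 0.39. Cars2 was at 38.2, 59.5, 63.4, 61.1 and 124 CPM with vehicle and at 19.7 to 38.2 CPM (median 30.9) with 5+3. Iars2 (0.10 ± 0.19), Vars2 (0.31 ± 0.32) and Lars2 (-1.37 ± 1.17) did not pass.

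**Figure D4:**
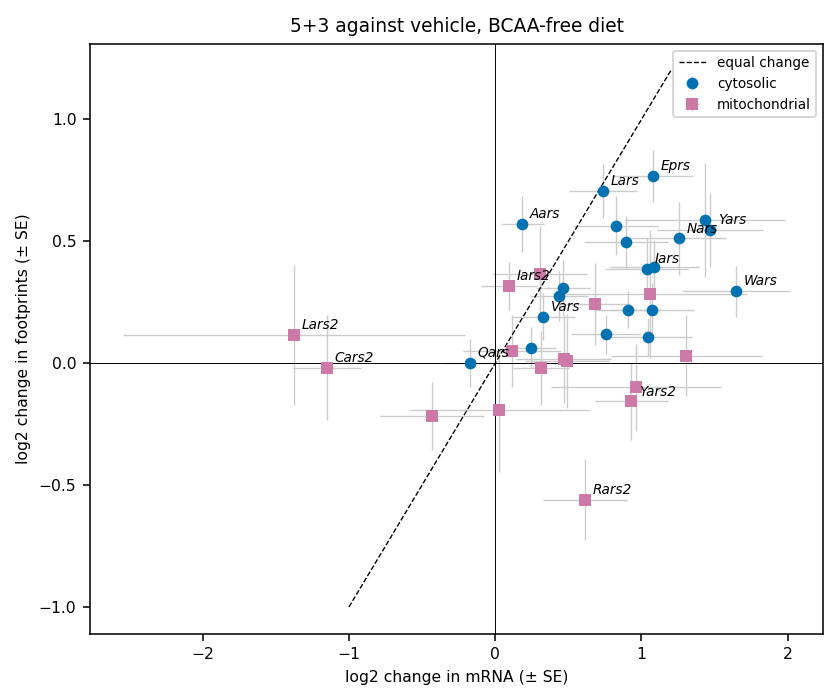
Change with 5+3 on the BCAA-free diet in mRNA (horizontal) against footprints (vertical) for each synthetase, as log2 change ± SE, with a dashed line of equal change. Most cytosolic members (circles) lie below the line, with a larger change in mRNA than in footprints, while Aars and Qars lie above it and Lars close to it.

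In the other 4 mRNA comparisons 0 of 36 members passed in edgeR's test, and 0 in DESeq2. At an unadjusted p under 0.05 there were 0 with 5+3 on the AA diet, 9 between the diets with vehicle, 3 between the diets with 5+3 and 8 for the interaction. Over all 21114 genes the counts at that cut were 1243, 2363, 2739 and 2545 in the same order. All-gene calls at an adjusted p under 0.05 were few there too, at 0.0616% (0.0189% higher and 0.0426% lower), 0%, 1.24% (0.559% and 0.682%) and 0.0758% (0.0237% and 0.0521%). Between the diets with vehicle, mRNA of Lars differed by -0.61 ± 0.25, Iars by -0.64 ± 0.30 and Vars by -0.03 ± 0.23. Iars2 differed by 0.49 ± 0.21, Vars2 by 0.07 ± 0.34 and Lars2 by 0.34 ± 1.27. With 5+3 on the AA diet Lars changed by -0.35 ± 0.26, Iars by 0.26 ± 0.32 and Vars by 0.10 ± 0.24, and Iars2 by 0.19 ± 0.22, Vars2 by -0.09 ± 0.37 and Lars2 by 0.38 ± 1.34.

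Between the diets with 5+3, mRNA of Lars differed by 0.48 ± 0.25, Iars by 0.13 ± 0.30 and Vars by 0.20 ± 0.23, and Iars2 by 0.40 ± 0.21, Vars2 by 0.47 ± 0.35 and Lars2 by -1.41 ± 1.23. The interaction was 1.09 ± 0.35 for Lars, 0.77 ± 0.42 for Iars and 0.23 ± 0.32 for Vars. It was -0.09 ± 0.29 for Iars2, 0.40 ± 0.49 for Vars2 and -1.76 ± 1.78 for Lars2. The mRNA libraries were noisier for these genes: the median SE of a cytosolic member with 5+3 on the BCAA-free diet was 0.28, against 0.11 in footprints.

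The mRNA level of the cytosolic class also ran with the main axis of variation of the mRNA libraries. The mean log2 CPM of the 20 genes had a correlation of 0.95 with the first principal component of all genes tested, over 21 libraries, and of -0.00467 in footprints. On that axis replicates 1, 2, 4 and 5 of the BCAA-free 5+3 group lay between 54.5 and 69.7, and BCAA-free vehicle replicates 1, 2 and 5 at -52.2, -57.5 and -115. In the last of these, several members were nearly absent from mRNA but not from footprints. Cars had 0.814 mRNA CPM and 20.3 footprint CPM, and Fars2, the mitochondrial phenylalanine enzyme, had 0.105 and 5.70 CPM. Neutrophil markers were lower in BCAA-free mice with 5+3 in mRNA as well, at 125 to 1139 CPM against 1331 to 1967 CPM, and the part of either in the mRNA changes was not tested.

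**Figure D5:**
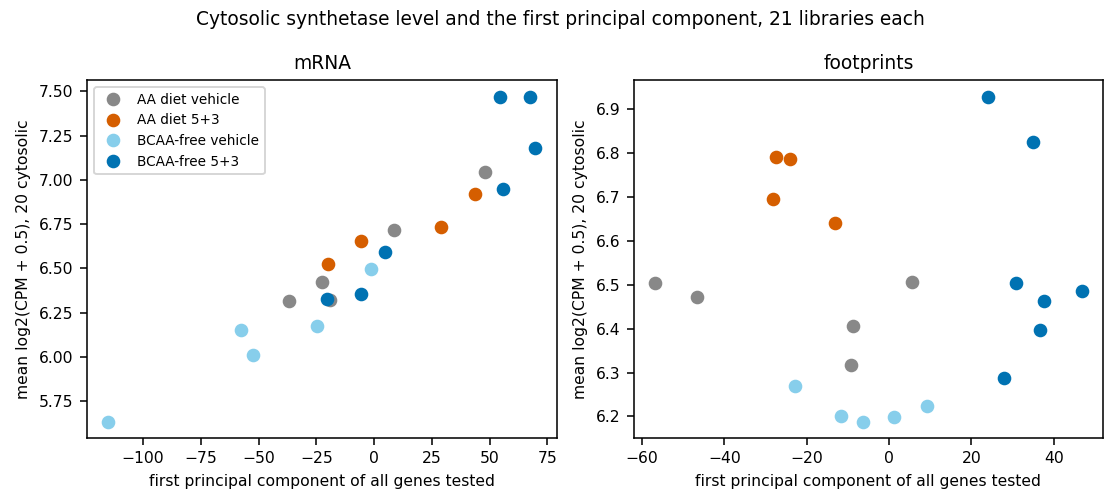
Mean log2(CPM + 0.5) of the 20 cytosolic synthetases against the first principal component of all genes tested, 1 point per library, in mRNA (left) and footprints (right), coloured by group. The mRNA points follow a line (r = 0.95, 21 libraries) on which the groups overlap, and the footprint points show none (r = -0.00467).

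Translational efficiency is the footprint to mRNA ratio, tested as an interaction of library kind with group. With 5+3 on the BCAA-free diet, Wars fell by 1.40 on the log2 scale (SE 0.36, adjusted p = 0.0274) and Yars fell by 0.87 (SE 0.26, adjusted p = 0.0416), 2 of 20 cytosolic members with 0 higher. Over all 12097 genes 7.63% fell and 2.7% rose (10.3% in all), so the cytosolic count is near that share. The class median was -0.50, and the median of all genes was itself -0.24. In the mitochondrial class Rars2 fell by 1.19 (SE 0.25, adjusted p = 0.0203) and Yars2 fell by 1.12 (SE 0.23, adjusted p = 0.0196), while Cars2 rose by 1.10 ± 0.27 (adjusted p = 0.025), with a class median of -0.49. Lars changed by -0.01 ± 0.24, Iars by -0.58 ± 0.30 and Vars by -0.10 ± 0.24. Iars2 changed by 0.20 ± 0.22, Vars2 by 0.08 ± 0.35 and Lars2 by -0.19 ± 1.42. The count of 5 was 0 without the 4 mice, and also 0 without vehicle replicate 2, treated replicate 2 or treated replicate 5, with a highest count of 8 when another mouse was left out.

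No member passed in the other 4 comparisons of efficiency in edgeR's test or in DESeq2 (0 of 36 in each), where 0%, 0%, 0.0165% and 0.00827% of all genes did. At an unadjusted p under 0.05 there were 1 with 5+3 on the AA diet, 5 between the diets with vehicle, 6 between them with 5+3 and 6 for the interaction. Over all 12097 genes the counts at that cut were 315, 1107, 1006 and 1603. In the order of those comparisons, Lars changed by 0.43 ± 0.27, 0.31 ± 0.26, -0.14 ± 0.25 and -0.44 ± 0.36. For Iars the values were 0.06 ± 0.35, 0.09 ± 0.33, -0.55 ± 0.32 and -0.64 ± 0.46, and for Vars 0.17 ± 0.27, 0.12 ± 0.26, -0.15 ± 0.25 and -0.27 ± 0.36. Iars2 changed by -0.04 ± 0.25, -0.35 ± 0.24, -0.11 ± 0.23 and 0.24 ± 0.33, and Vars2 by 0.17 ± 0.39, -0.36 ± 0.38, -0.45 ± 0.36 and -0.09 ± 0.52. Lars2 had SEs of 1.51 to 2.13 in these comparisons.

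A list of 21 other genes of tRNA charging and amino acid sensing was followed in the same tests. In footprints with 5+3 on the BCAA-free diet 1 of 20 tested rose and 0 fell, against 8.76% and 11.9% of all genes. That gene was Asns, which rose by 0.91 ± 0.16 (adjusted p = 0.000545), from a mean of 64.2 ± 8.21 CPM (SD, n = 5) to 120.5 ± 37.7 CPM (n = 7) with no overlap. Its mRNA rose by 1.58 ± 0.32 (adjusted p = 0.00908), but on the AA diet its footprints changed by 0.32 ± 0.18 (adjusted p = 0.3). In mRNA of that BCAA-free comparison 2 of 21 rose and 4 fell, against 4.33% and 4.23% of all genes. Beside Asns, Gatc, of the mitochondrial glutamine amidotransferase, also rose (1.21 ± 0.33, adjusted p = 0.0287). Of the genes of the GCN2 and ATF4 pathway on the list, 3 fell there: Ddit3 (CHOP) by 1.25 (SE 0.20, adjusted p = 0.00229), Eif2ak4 by 0.68 (SE 0.19, adjusted p = 0.0334) and Atf4 by 0.62 (SE 0.20, adjusted p = 0.0488). Gcn1 (0.35 ± 0.28) and Impact (-0.59 ± 0.31) did not pass, and Asns rose as given above. The scaffold Aimp1 fell by 0.76 (SE 0.22, adjusted p = 0.034). In the 12 mRNA fits with 1 mouse left out, Asns and Ddit3 passed in all 12, Eif2ak4 in 6, Gatc and Aimp1 in 5 each and Atf4 in 3. Footprints of Atf4 changed by 0.02 ± 0.30, and Ddit3 had too few footprints to test.

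Between the diets with 5+3, footprints of Eif2ak4 fell by 0.95 (SE 0.18, adjusted p = 0.000483) and those of Gcn1, which helps GCN2 sense uncharged tRNA, fell by 0.32 (SE 0.11, adjusted p = 0.0318). Gatb of the mitochondrial amidotransferase fell by 0.40 (SE 0.15, adjusted p = 0.0435), while Pstk, which acts on selenocysteine tRNA, rose by 0.89 ± 0.29 (adjusted p = 0.0253) and Aimp1 by 0.26 ± 0.09 (adjusted p = 0.0319). These were 2 of 20 higher and 3 lower, no more than the 12.5% and 15.8% over all genes. Eif2ak4 passed in all 11 fits with 1 mouse left out, Pstk in 9, Gcn1 in 8, Aimp1 in 6 and Gatb in 5. In mRNA Qrsl1, the third amidotransferase subunit, rose by 0.72 ± 0.18 (adjusted p = 0.04) and Ddit3 fell by 0.96 (SE 0.22, adjusted p = 0.0225), which passed in 2 and 6 of 11 such fits. In efficiency with 5+3 on the BCAA-free diet Aimp1 rose by 0.94 ± 0.26 (adjusted p = 0.0327) and Gatc fell by 1.35 (SE 0.40, adjusted p = 0.039). No related gene passed in the remaining comparisons of footprints, mRNA or efficiency in edgeR's test, where 0 to 5 genes had an unadjusted p under 0.05. Over all genes that cut was met by 2750 to 3716 of 15723 in footprints, 1243 to 2545 of 21114 in mRNA and 315 to 1603 of 12097 in efficiency.

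Within the cytosolic class the genes ran together from mouse to mouse. The correlation of each with the mean of the other cytosolic members, over 21 footprint libraries, was 0.26 (Farsa) to 0.98 (Tars), with a median of 0.83. Vars (0.39), Dars (0.28) and Qars (0.42) were at the low end with Farsa, and Lars was at 0.73 and Iars at 0.89. For mitochondrial genes the correlation with the cytosolic mean was -0.38 to 0.68 with a median of 0.15, on far fewer counts. Of 9161 other genes, those most alike in footprints were Aldh18a1, of proline synthesis (r = 0.930), the mitochondrial chaperonin Hspd1 (r = 0.919) and its pseudogene row Hspd1-ps3 (r = 0.912), the proteasome subunit Psmd2 (r = 0.886) and the protease inhibitor Serpinb1a (r = 0.884). Mean footprints of Aldh18a1 were 54.3, 75.5, 31.2 and 64.2 CPM in AA vehicle, AA 5+3, BCAA-free vehicle and BCAA-free 5+3 mice. These libraries fall into 4 groups and share scaling, so the correlations are descriptions.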

How the data were processed

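Sorted leukaemia cells of 21 mice were measured as 1 mRNA (Smart-seq2) and 1 footprint library each, labelled biological replicates. The deposited values are whole-number read counts per mouse Ensembl gene. Per the submitters' processing notes, cutadapt, Bowtie2, STAR, SAMtools and featureCounts were used with GRCm38 and mm10. Versions, the annotation and strand use were not stated in those notes, so reads of Hars and Hars2, which overlap by a few bases, and of Kars and its pseudogene Kars-ps1 may be shared. Of the 55487 identifiers 55141 matched a symbol.

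Counts were tested with edgeR 4.0.16 (R 4.3.3; quasi-likelihood, robust, TMM scaling, filterByExpr with a minimum count of 10 and total of 15), all 4 groups in 1 fit, with Benjamini-Hochberg adjustment over all genes at 0.05. Efficiency was the library kind by group term with the mouse as a block, since both libraries of a mouse share a lysate. SEs follow from the fold change and its F statistic. Correlations use log2(CPM + 0.5). The procedure was tested on simulated counts. The promoter of 1 cytosolic member is not reported here. Alternatives were DESeq2 1.42.0, its size factors, no filter, the compared groups alone, a replicate block, scaling without pseudogene-style and mitochondrial rows, and leaving out mice. No 2 libraries of the same kind and group agreed within sampling noise (47 pairs in each kind), and pairs across groups were not compared.

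Genes named are the 6 BCAA enzymes throughout, up to 6 cytosolic and 4 mitochondrial genes with the largest change among those past the threshold in each comparison, Gars, Kars, Wars and members of the multisynthetase complex where described, related genes past the threshold, and the 5 genes of most similar footprint pattern (of those with a mean of at least 10 CPM). The members and lists were chosen with earlier results of these data known.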

Additional observations from a re-analysis of the deposited data

Results flagged for a closer look

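Levels of 24 members were searched for a single mouse far from the rest of its group. Of 192 groups 9 had one, and chance flags about 1 in 20 groups.

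In footprints of AA vehicle mice, Kars was at 159 CPM in replicate 2 (134 to 140 in the other mice), Vars2 at 12.2 CPM in replicate 1 (5.47 to 7.33) and Yars2 at 17.6 CPM in replicate 2 (10.1 to 11.4). In mRNA, Dars was at 171 CPM in BCAA-free vehicle replicate 4 (104 to 121), Tars2 at 184 CPM in BCAA-free vehicle replicate 5 (42.9 to 82.3) and Vars2 at 32 CPM in AA vehicle replicate 3 (18.2 to 21.1). Lars2 mRNA was far above its group in 3 mice, at 26354 CPM in AA vehicle replicate 5, at 41596 CPM in BCAA-free vehicle replicate 3 and at 13616 CPM in BCAA-free 5+3 replicate 3.

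The footprint change with 5+3 differed between the diets by edgeR's interaction test for Lars (0.61 on the log2 scale) and Eprs (0.53).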

How the results depend on the processing

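Counts below are synthetases past the threshold, with the value reported above in parentheses, and the causes of the changes were not tested. The libraries removed for depth or for their mRNA, and the mice left out of the class ratios, were chosen after seeing the data.

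The labels do not say that replicate numbers pair mice across groups. Same-numbered footprint libraries had correlations of deviations from -0.263 to 0.412 (median -0.0154). In mRNA they were -0.445 to 0.455 (median 0.0565). Between the mRNA and footprint library of the same mouse they were -0.0396 to 0.348 (median 0.101). Of 21 mRNA libraries, 8 were most alike to the footprints of their own mouse. With a replicate block the footprint interaction gave 0 (2), and the other 9 footprint and mRNA counts stayed within 1.5 times. Without the mouse block, efficiency counts did too.

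Without the 4 mice apart in mRNA the counts were 2 (5) for 5+3 on the AA diet in footprints, 3 (13) on the BCAA-free diet, 0 (2) between diets with vehicle and 0 (2) for the interaction. In mRNA 0 (11) and in efficiency 0 (5) passed for 5+3 on the BCAA-free diet. Without the 2 shallowest libraries the diets with vehicle gave 0 (2) and the interaction 1 (2). The diets with vehicle gave 5 with no filter, 5 in DESeq2 and 7 with only the compared groups. For 5+3 on the BCAA-free diet, mRNA gave 18 in DESeq2 and 3 with only the compared groups, and efficiency gave 3 with only the compared groups. With no filter, efficiency gave 1 (0) for 5+3 on the AA diet, between diets with 5+3 and for the interaction.

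With 1 mouse left out, footprint counts ran from 1 to 6 for 5+3 on the AA diet, 10 to 16 on the BCAA-free diet, 1 to 4 between diets with vehicle, 6 to 10 with 5+3 and 0 to 3 for the interaction. On the BCAA-free diet with 5+3, mRNA ran from 2 to 15 and efficiency from 0 to 8. The other mRNA and efficiency counts stayed at 0. No synthetase or related gene past the threshold in edgeR's test reversed its direction in any alternative run. Those that did not pass were not followed by gene. Differences of the log2 class ratios moved by less than the pooled SD of their groups, which the Lars2 row widens. Without Lars2 the footprint difference between the diets with 5+3 went from -0.43 to -0.0032, more than the SD of 0.33 in the AA 5+3 mice. With 1 mouse left out, the mRNA difference with 5+3 on the BCAA-free diet ran from -0.22 to 1.30, with a change of sign. Mitochondrial members have the fewest footprints, so a change missed there is not shown to be absent.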
